A study of Canis lupus familiaris with 10 samples.

Results

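The miRNAs best known from red blood cells are described here in canine lymph nodes, as the rows cfa-miR-451, cfa-miR-144, cfa-miR-486 and cfa-miR-486-3p of the deposited table (the prefix for the dog is left out below). They were chosen by name, as 4 of the 320 miRNAs listed, and all 4 passed the filter on low counts that left 247 miRNAs for testing. miR-451 and miR-144 are cut from a shared primary transcript that the transcription factor GATA1 switches on in developing red cells. miR-451 is unusual in that its hairpin is cleaved by Argonaute 2 rather than by Dicer. miR-486 is made within the gene of ankyrin 1, a protein of the red cell membrane skeleton, and is also abundant in skeletal and heart muscle. Red blood cells have lost their nucleus and keep a stock of these miRNAs, so that blood held in a tissue adds to what is measured there.

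The libraries were made from small RNA of fresh-frozen lymph nodes, of which 6 held canine diffuse large B-cell lymphoma (DLBCL1 to DLBCL6) and 4 (Healthy2 to Healthy5) were histologically normal, with 1 library for each dog. The dogs with lymphoma were hospital patients of several breeds and both sexes, sampled by surgical biopsy of a peripheral node under anesthesia, and their ages are not given in the sources used here. The healthy dogs were young female hound crosses, bred for research, whose nodes were collected when they were euthanized in surgical teaching. Disease, origin, breed, age and way of sampling, including how much blood stayed in the node, cannot be told apart between the groups. In bulk tissue, more cells of a type and more RNA for each cell cannot be told apart either.

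Between 10686441 and 25784861 reads were counted on miRNAs in the DLBCL libraries and between 30432969 and 34709421 in the healthy ones. Expression is given as CPM, which are reads per 1000000 miRNA reads after adjustment of the library size with the TMM factors of edgeR. These factors ranged from 0.698 to 2.03 in DLBCL and from 0.507 to 1.11 in healthy nodes. The 2 most abundant of 5 miRNAs listed for lymphocytes were present in every library, with miR-142 between 3382 and 7521 CPM and miR-155 between 3264 and 14698 CPM over both groups. The rest of that list, with negative log2 fold changes, is given below with the markers of other cells. The percentage of bases at Q30, listed by the study for each library, was higher in DLBCL1, DLBCL2, DLBCL3 and DLBCL5 than in DLBCL4, DLBCL6 and the healthy libraries. The latter are called here the lower Q30 group, and fits within it set those 2 DLBCL libraries against all 4 healthy ones.

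miR-451, miR-486 and miR-486-3p were called higher in DLBCL, and miR-144 was not. A call needed an adjusted p-value under 0.05 from edgeR's quasi-likelihood test and a change of over 2-fold in either direction. By this rule, 14 of the 247 miRNAs tested (5.67%) were called, 9 of them (3.64%) higher and 5 (2.02%) lower in DLBCL. For the same 3 miRNAs, every DLBCL library lay above every healthy library, as it did for 6.88% of all miRNAs tested, while 6.07% lay wholly below and 13.0% on either side. Among the 247 miRNAs, ordered from the largest positive log2 fold change, miR-486 stood in place 2, miR-486-3p in place 3, miR-451 in place 5 and miR-144 in place 15.

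**Figure D1:**
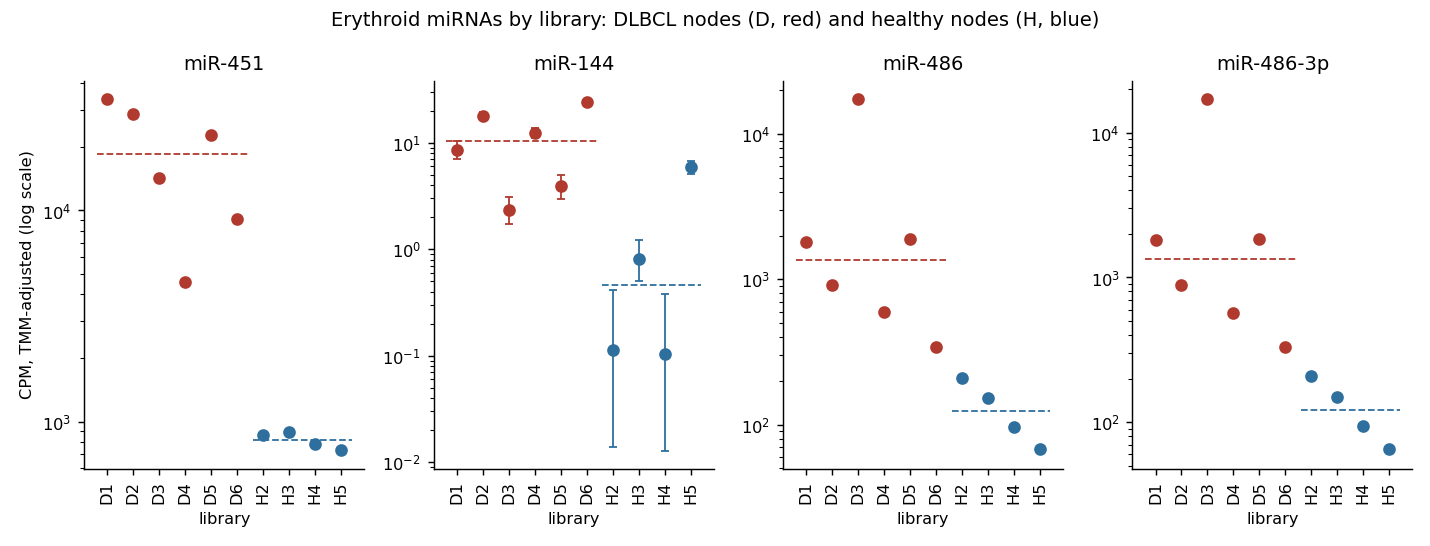
CPM (log scale) of the 4 miRNAs in each of the 10 libraries, with DLBCL nodes (D) in red and healthy nodes (H) in blue, numbered as in the text. Points are single dogs, bars are exact 95% Poisson intervals of the count (hidden by the points where counts are large), and dashed lines are group medians. The groups are apart for miR-451, miR-486 and miR-486-3p, DLBCL3 stands above the others for the latter pair, and Healthy5 lies among the DLBCL nodes for miR-144.

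miR-451 was one of the abundant miRNAs of the lymphoma nodes. Its lowest level in DLBCL was 4563 CPM in DLBCL4, the median was 18513 CPM, and the highest level was 33752 CPM in DLBCL1. In healthy nodes it was 862 CPM in Healthy2, 894 in Healthy3, 780.4 in Healthy4 and 733 in Healthy5. In CPM the healthy dogs were close together and the DLBCL dogs were not, and even the lowest DLBCL node held 5.10 times as much as the highest healthy node. edgeR gave a log2 fold change of 4.53 ± 0.60 (SE, adjusted p = 0.00123), and a permutation of the libraries gave p = 0.00476 (exact, two-sided, 210 splits, the smallest p that they allow). By reads, miR-451 ranked between place 5 and place 23 of the 320 miRNAs in the DLBCL libraries and between place 44 and place 48 in the healthy ones. Its share of all miRNA reads was 2.20% ± 1.36 (SD, n = 6) in DLBCL against 0.0633% ± 0.0198 (SD, n = 4) in normal tissue.

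In CPM, the level of miR-451 in DLBCL also followed the Q30 groups. DLBCL4 and DLBCL6 held 4563 and 9065 CPM, and the other DLBCL libraries held between 14260 and 33752. This order depends on the TMM factors. As a share of all miRNA reads, miR-451 was 1.84% in DLBCL6, above DLBCL3 (1.17%) and DLBCL5 (1.59%). Within the lower Q30 group edgeR gave a log2 fold change of 3.05 ± 0.35 (SE, adjusted p = 0.000448), where 17.8% of the 259 miRNAs tested were called and 11.6% were called higher in DLBCL. The call of miR-451 held in each of the 14 other settings tried and in each of the 10 fits without a single library, with log2 fold changes between 3.05 and 5.12.

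miR-144, the partner of miR-451 on the same transcript, was rare in every node. Its lowest level in DLBCL was 2.35 CPM in DLBCL3, from 50 reads, its median was 10.5 CPM, and its highest level was 24.4 CPM in DLBCL6, from 985 reads. In healthy nodes it was 0.114 CPM in Healthy2 and 0.105 CPM in Healthy4, each from 2 reads, then 0.807 CPM in Healthy3 and 5.92 CPM in Healthy5. The groups overlapped, since Healthy5 lay above DLBCL3 and DLBCL5, while 4 of the 6 DLBCL libraries exceeded every healthy library. A count of 2 reads has an exact 95% Poisson interval of 0.0138 to 0.411 CPM in Healthy2 and of 0.0127 to 0.379 CPM in Healthy4, so that Healthy3 lay above both intervals. These intervals cover counting error only, because PCR copies of a molecule are each counted as a read.

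In edgeR, miR-144 was at 2.72 ± 1.13 (SE) on the log2 fold scale, and with an adjusted p of 0.139 it was not called. The single permutation test of log2 CPM, which is not adjusted over the miRNAs tested, gave p = 0.019 (exact, two-sided). Without Healthy5 the log2 fold change was 4.94 (adjusted p = 0.0333 from edgeR) and miR-144 was called, and it was also called with all libraries by DESeq2, with 2.76, and by limma voom with sample quality weights, with 4.47. DESeq2 called 14.7% of the miRNAs it tested, with 10.8% called higher in DLBCL, and limma voom called 18.6% and 10.5%. Within the lower Q30 group the log2 fold change was 3.37 (adjusted p = 0.105 from edgeR).

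miR-486 was higher in DLBCL but spread widely among the dogs. Its lowest level was 339.5 CPM in DLBCL6, its median was 1361 CPM, and its highest level was 17490 CPM in DLBCL3. The healthy libraries held 208 CPM in Healthy2, 152 in Healthy3, 95.5 in Healthy4 and 68.4 in Healthy5. DLBCL3 was the only library with more miR-486 than miR-451, and the next DLBCL library, DLBCL5, held 1892 CPM, while the lowest DLBCL library was 1.63 times as high as the highest healthy one. edgeR gave a log2 fold change of 4.87 ± 1.20 (SE, adjusted p = 0.0397), and the exact two-sided permutation test gave p = 0.00952.

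Without DLBCL3 the log2 fold change of miR-486 fell to 3.13, with a smaller standard error of 0.60 (adjusted p = 0.012 from edgeR). The call was lost without DLBCL1 and without any single healthy library, with adjusted p-values of 0.0715 to 0.144 from edgeR in these 5 fits. Within the lower Q30 group it was 1.83 ± 0.48 (SE, adjusted p = 0.0345 from edgeR), and with the Q30 group as a covariate it was 1.84 and not called (adjusted p = 0.348 from edgeR). No healthy library is in the higher Q30 group. Both fits thus take the fold change from DLBCL4 and DLBCL6 against the healthy libraries, and they are not separate checks. As with miR-451 in CPM, DLBCL4 and DLBCL6 were the lowest DLBCL libraries, at 596 and 339.5 CPM, and the others ranged from 916 to 17490 CPM.

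The row named miR-486-3p was nearly a copy of the row named miR-486. Its reads amounted to between 95.6% of those of miR-486 in DLBCL4 and 99.9% in DLBCL1, whether the library held 1819 reads of miR-486 or 371586. No other pair came close. Among the 189 miRNAs with at least 10 reads in every library, which form 17766 pairs, this was the only pair whose counts stayed within 0.1 on the log2 scale in all 10 libraries, its largest gap being 0.06. The next closest pair was let-7e and miR-22, with a largest gap of 0.47. In CPM, miR-486-3p ranged from 332 to 17133 in DLBCL and from 65.8 to 207 in healthy nodes, and its log2 fold change was 4.87 ± 1.20 (SE, adjusted p = 0.0397 by edgeR), or 3.12 without DLBCL3 (adjusted p = 0.012 by edgeR). How the counting assigned reads to these names cannot be seen in the table, so that the pair is best read as a single measurement and not as 2 calls. With miR-486-3p left out of the table, miR-486 was still called, with a log2 fold change of 5.07 (adjusted p = 0.0432 from edgeR).

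The spread among dogs differed between these miRNAs and between the groups. On the log2 CPM scale, the SD over the 6 DLBCL libraries was 1.10 for miR-451, 1.28 for miR-144 and 1.98 for miR-486, beside a median of 1.07 over the 247 miRNAs tested. Over the 4 healthy libraries it was 0.13, 2.36 and 0.71, beside a median of 0.54. In the healthy dogs, miR-451 was thus among the steadiest miRNAs on this scale, in place 240 of 247 from the largest SD, and miR-144 among the most variable, in place 3. The share of miR-451 among all miRNA reads, which uses no TMM factor, was 0.0437% in Healthy2, 0.0792% in Healthy3, 0.0488% in Healthy4 and 0.0814% in Healthy5. Its steadiness thus depends on the scaling, and these places were computed with the TMM factors only. The highest DLBCL library exceeded the lowest 7.40-fold for miR-451, 10.4-fold for miR-144 and 51.5-fold for miR-486. These values are descriptions and were not tested.

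Ratios of reads within a library do not depend on the library's scaling. The ratio of miR-451 to miR-23a is in use as a sign of red cell lysis in serum and plasma, where miR-23a serves as a miRNA that red cells change little, but no scale for it in tissue was used here. Between 3.90 and 5.48 reads of miR-451 were counted for each read of miR-23a in the healthy libraries, and between 56.3 (DLBCL6) and 1371 (DLBCL3) in the DLBCL libraries. The mean log2 ratio was 7.98 ± 1.76 (SD, n = 6) in DLBCL against 2.26 ± 0.22 (SD, n = 4) in the normal nodes, a difference of 5.73 (exact permutation test, two-sided, p = 0.00476, or 0.019 after Benjamini-Hochberg adjustment over the 4 ratios computed). Within the lower Q30 group the difference was 3.87. miR-23a itself was at -1.06 ± 0.59 on the log2 fold scale (SE, adjusted p = 0.254 by edgeR), and its own difference is contained in that of the ratio.

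**Figure D2:**
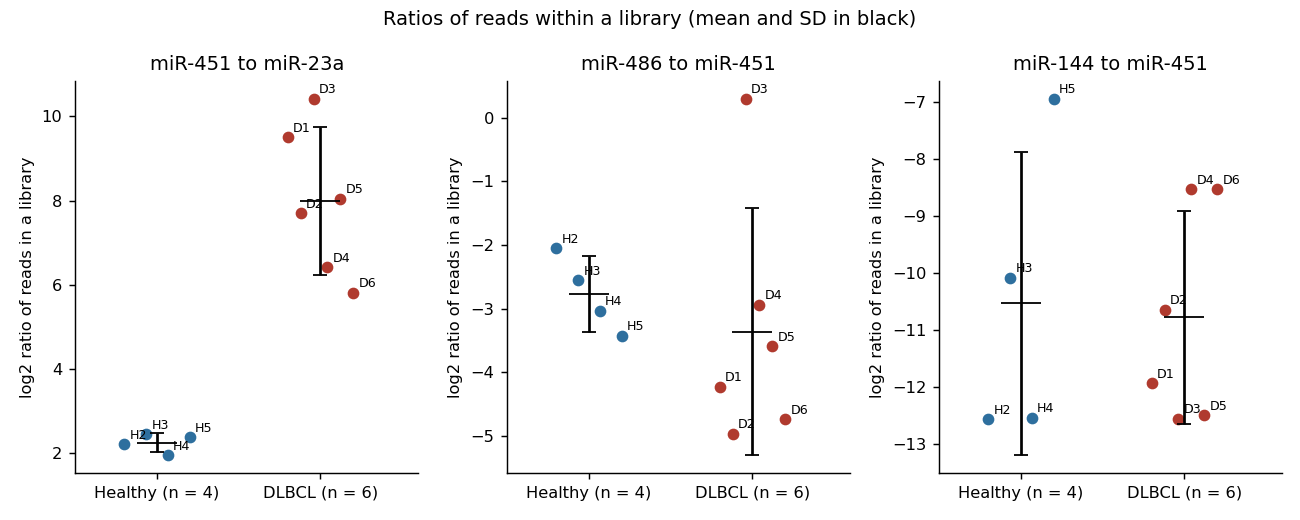
Log2 ratios of reads of a pair of miRNAs within each library, with healthy nodes in blue, DLBCL nodes in red, and the mean and SD of each group in black. The ratio of miR-451 to miR-23a separates the groups, and the ratios of miR-486 and of miR-144 to miR-451 overlap, with DLBCL3 and Healthy5 at their upper ends.

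The proportions of the erythroid miRNAs among themselves overlapped between the groups. For each read of miR-144, between 369.5 (DLBCL4) and 6059 (DLBCL3) reads of miR-451 were counted in DLBCL, and between 124 (Healthy5) and 7577 (Healthy2) in healthy nodes. miR-144 and miR-451 thus did not keep a fixed ratio, although their genes are annotated side by side in the canine assembly UU_Cfam_GSD_1.0, between ERAL1 and FLOT2. Their mean log2 ratio differed by -0.25 between DLBCL and healthy nodes (exact permutation test, p = 0.914, the same after adjustment over the 4 ratios), while the SD within the groups was 1.87 (n = 6) and 2.66 (n = 4). The sign of this difference is not settled, since it was 0.95 without Healthy5 (exact permutation test, p = 0.464), -0.92 without Healthy2 and -0.92 without Healthy4, and 2.001 within the lower Q30 group. Leaving out single DLBCL libraries gave values from -0.70 (without DLBCL4 or DLBCL6) to 0.11 (without DLBCL3). The healthy ratios rest on as few as 2 reads of miR-144. miR-486, whose gene lies within ANK1 in that annotation, had 3.21% (DLBCL2) to 123% (DLBCL3) of the reads of miR-451 in DLBCL and 9.32% (Healthy5) to 24.2% (Healthy2) in healthy nodes. The mean log2 ratio differed by -0.59 (exact permutation test, p = 0.619, adjusted p = 0.914). DLBCL3 decided this value, since without it the difference was -1.33 (exact permutation test, p = 0.0476).

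Among the 6 DLBCL libraries, the order of the dogs was not shared by the erythroid miRNAs. In CPM, miR-451 was highest in DLBCL1 and DLBCL2, miR-486 in DLBCL3 and DLBCL5, and miR-144 in DLBCL6 and DLBCL2. As a share of all miRNA reads, miR-486 was higher in DLBCL1 (0.202%) than in DLBCL5 (0.132%), so that this order depends in part on the scaling. Between log2 CPM of miR-451 and miR-144, Pearson's r was -0.22 (exact permutation of 720 pairings, p = 0.671) and Spearman's rho was -0.20 (p = 0.714, exact). Between miR-451 and miR-486, r was 0.32 (p = 0.556, exact) and rho was 0.43 (p = 0.419, exact). Neither passed, with adjusted p-values of 0.671 and 0.667 for r and of 0.714 and 0.503 for rho over the 6 pairs computed. Without DLBCL4 and DLBCL6, the libraries farthest from the median of miR-451 and those of the lower Q30 group, r was 0.82 for miR-144 and -0.89 for miR-486 (n = 4), and with total miRNA reads r was 0.23 and -0.18, so that neither sign was stable.

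miR-144 and miR-486 ran in opposite order in the DLBCL libraries. Pearson's r was -0.91 (exact permutation, p = 0.00417, adjusted over the 6 pairs 0.00833) and Spearman's rho was -0.94 (exact permutation, p = 0.0167, adjusted 0.0333). Without DLBCL3 and DLBCL5, the libraries farthest from the median of miR-144, r was -0.83 (n = 4). When scaled to the total of miRNA reads, r was -0.76 (exact permutation, adjusted p = 0.0667), so that the call depends on the TMM factors, and leaving out single DLBCL libraries gave -0.97 to -0.84. The adjusted p-values of these 6 fits ranged from 0.0167 to 0.15 (exact permutation), and the call was lost without DLBCL2, DLBCL3 or DLBCL6. The Q30 groups hold 4 and 2 DLBCL libraries, too few for a correlation within them.

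**Figure D3:**
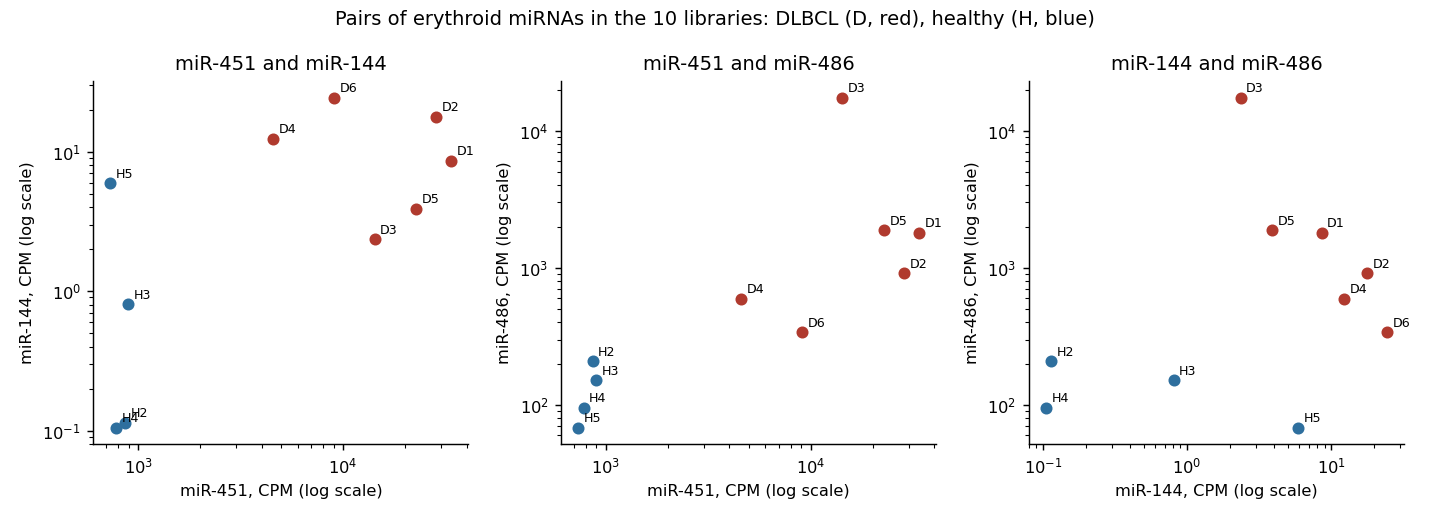
Pairs of the erythroid miRNAs in CPM (log scales), with a point for each library, DLBCL in red and healthy in blue. Every DLBCL node lies above the healthy nodes in miR-451, and within DLBCL the points of miR-144 and miR-486 run from DLBCL3 at the upper left to DLBCL6 at the lower right.

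Other miRNAs known to be abundant in red blood cells or their precursors were read beside the 4. Of 14 such miRNAs, all tested, 1 was called higher in DLBCL and 0 lower, 7 had an unadjusted p-value under 0.05, and 11 had a positive log2 fold change. Over all 247 miRNAs tested, 5.67% were called, 66 (26.7%) had an unadjusted p-value under 0.05, and 137 (55.5%) had a positive log2 fold change. Their median log2 fold change was 1.10, beside 0.13 over all 247 miRNAs tested. The one called was miR-363, of the miR-106a/363 cluster, which was between 3021 and 15430 CPM in DLBCL and between 1653 and 2584 CPM in healthy nodes. miR-25 and miR-363 had the highest mean CPM of these miRNAs over the 10 libraries, and miR-25 was at 1.20 ± 0.50 on the log2 scale (SE, adjusted p = 0.141 by edgeR). miR-16, which red cells also hold in large amounts, was at -0.27 ± 0.40 (SE, adjusted p = 0.707 by edgeR). miR-182, miR-183 and miR-96, which form a single cluster, had the largest log2 fold changes of the 14, at 3.37, 3.68 and 2.85, with adjusted p-values of 0.118, 0.118 and 0.105 from edgeR, and all 3 were called by DESeq2. miR-182 and miR-183 were highest in DLBCL3, at 9586 and 4922 CPM, beside DLBCL means of 2331 and 1051 CPM. miR-16, miR-182, miR-183 and miR-96 are named here after their values were seen. Many of these miRNAs are also made by lymphocytes or other cells of a node, so that the list is not specific to red cells.

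The summed level of the 14 ranged from 19291 to 69207 CPM in DLBCL and from 8773 to 14303 CPM in healthy nodes, and it was highest in DLBCL3, where 5 of the 14 had their highest level. DLBCL3 was also the lowest DLBCL library for miR-16, miR-15a, miR-22, miR-106b and miR-107. The number called of the 14 was 2 without DLBCL2, DLBCL3 or DLBCL4, when miR-92a joined miR-363, and 3 without DLBCL6, when miR-96 was added. Over all miRNAs tested, these fits called 17 of 243, 22 of 244, 23 of 244 and 15 of 242. The number was 0 without DLBCL1 or any single healthy library, where 1 to 6 miRNAs were called in all. With DESeq2 it was 5 (miR-363, miR-92a, miR-96, miR-182 and miR-183), beside 14.7% of all miRNAs tested. With limma voom it was 3 (miR-363, miR-92a and miR-93), beside 18.6%. It was 3 with limma on log2 TPM and 4 with total miRNA reads, beside 21 and 23 of 247. With the Q30 group as a covariate and with the replicate number as a block it was 0, beside 7 and 1 of 247. It was 3 in the lower Q30 group, namely miR-363, miR-93 and miR-106b, beside 17.8%. Of 6 miRNAs known to fall while red cells mature, 1 was called lower in DLBCL and 0 higher, beside 2.02% and 3.64% of all miRNAs tested. The median log2 fold change of the 6 was 0.10. The one called was miR-150, a miRNA of mature lymphocytes, at 553 to 1736 CPM in DLBCL and 3407 to 15205 CPM in healthy nodes. Without Healthy4 miR-150 was not called. miR-155 and miR-150 had the highest mean CPM of the 6 over the 10 libraries, and miR-155 was at 0.44 on the log2 scale (adjusted p = 0.568 from edgeR).

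**Figure D4:**
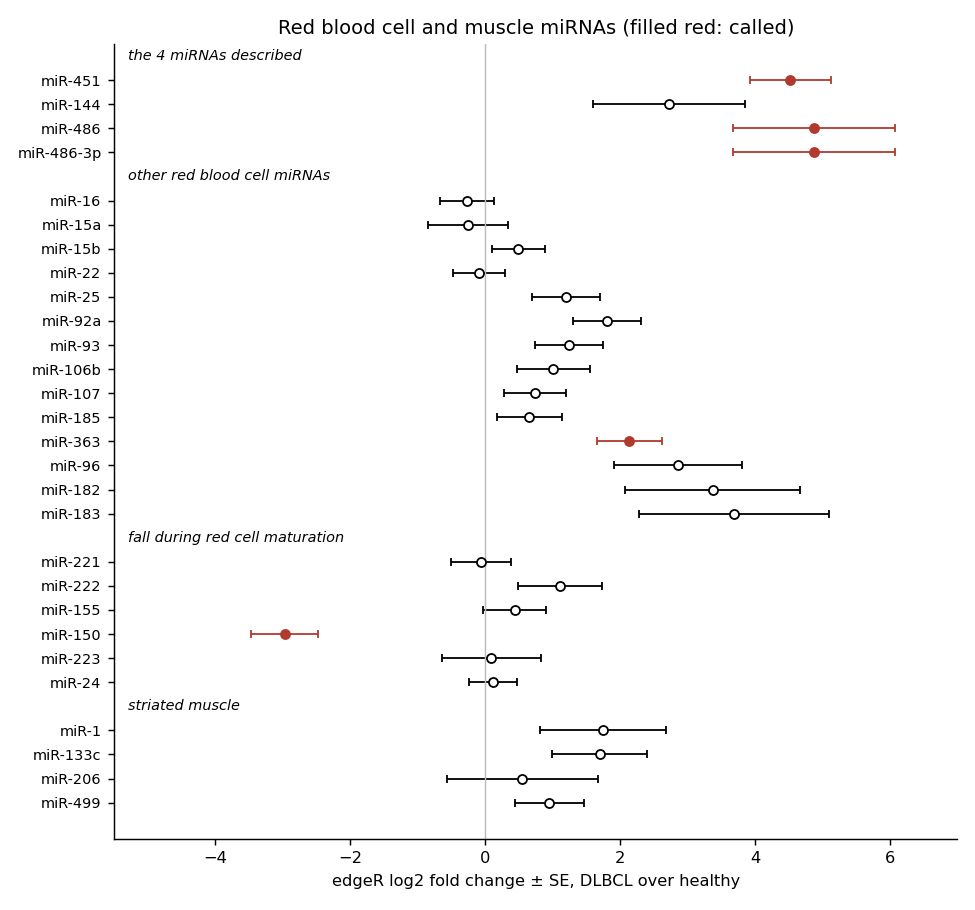
Log2 fold changes with standard errors from edgeR for the 4 erythroid miRNAs, other red blood cell miRNAs, miRNAs that fall during red cell maturation, and the 4 muscle miRNAs that were tested. Filled red points were called, which were miR-451, miR-486, miR-486-3p and miR-363 above 0 and miR-150 below it.

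Because muscle also makes miR-486, miRNAs of striated muscle were read beside it. Of the 7 listed, 4 passed the filter and 0 were called in either direction with all libraries (1 of the 4 had an unadjusted p-value under 0.05, beside 26.7% of all miRNAs tested), while miR-133c was called without DLBCL4. DESeq2 and limma voom also called 0 of them. In edgeR the log2 fold change was positive for each of the 4, beside 55.5% of the 247 miRNAs. The 4 had a median of 1.32, against 0.13 for the 247. With the lower Q30 group alone, the median of the 4 fell to -0.43, against -0.03 for the 259 miRNAs of that fit. miR-208a had no read in 7 of the 10 libraries. The summed level of the 7 ranged from 678 to 3238 CPM in DLBCL and from 609 to 771 CPM in healthy nodes. It was made up mostly of miR-499, with a mean of 1244 CPM in DLBCL and 644 CPM in healthy nodes. DLBCL3, the library highest in miR-486, held 828 CPM in this sum, above only DLBCL6 among the DLBCL libraries, but it was the highest in miR-1 and miR-206, at 301 and 51.0 CPM. The healthy libraries held 9.76 to 53.5 CPM of miR-1 and 0.645 to 21.1 CPM of miR-206. The part of muscle RNA in the level of miR-486 was not tested.

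Markers of other cells of the node were read in the same way. miR-223 of myeloid cells was between 3.95 and 88.3 CPM in DLBCL and between 16.9 and 38.6 CPM in the normal nodes, at 0.09 on the log2 fold scale (adjusted p = 0.948 from edgeR). Of 5 miRNAs of vessels and stroma, with miR-143 and miR-199 the most abundant, 0 were called by edgeR, DESeq2 or limma voom, beside 5.67%, 14.7% and 18.6% of all miRNAs tested. In edgeR 0 had an unadjusted p-value under 0.05, beside 26.7%, and 0 had a positive log2 fold change, beside 55.5%. The summed level of the 5 ranged from 18867 to 70627 CPM in DLBCL and from 26911 to 55304 CPM in healthy nodes. On the log2 scale miR-143 differed by -0.07, miR-199 by -0.90, miR-126 by -1.08, miR-214 by -0.74 and miR-145 by -0.30. The median of the 5 was -0.74, or 0.15 when scaled to the total of miRNA reads. miR-122 of the liver, which circulates in plasma, was between 0.753 and 11.1 CPM in DLBCL and between 0.257 and 2.28 CPM in healthy nodes. It was at 1.79 ± 0.93 on the log2 fold scale (SE) and was not called (adjusted p = 0.228 from edgeR). Of the 5 miRNAs of lymphocytes, with miR-155 and miR-142 the most abundant, 1 was called by edgeR and by DESeq2, which was miR-150, and limma voom and the fit without DLBCL4 also called miR-181a lower. Over all miRNAs tested, edgeR called 5.67%, DESeq2 14.7%, limma voom 18.6% and the fit without DLBCL4 23 of 244. In edgeR 2 of the 5 had an unadjusted p-value under 0.05, beside 26.7%. The log2 fold changes were -2.97 for miR-150, -1.49 for miR-181a, -0.77 for miR-342, 0.22 for miR-142 and 0.44 for miR-155. Their median was -0.77, or -0.05 with total miRNA reads. The summed level of the 5 was between 9138 and 22448 CPM in DLBCL and between 14280 and 30138 CPM in healthy nodes.

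The miRNAs most like each erythroid miRNA over all 10 libraries differed between them. For miR-451, the highest Pearson's r of log2 CPM were 0.87 with miR-8829, 0.84 with miR-425 and 0.83 with miR-363. For miR-144 they were 0.94 with miR-18a, 0.93 with miR-20a and 0.92 with miR-301b. For miR-486 they were 0.96 with miR-92a, 0.94 with miR-7 and 0.92 with miR-92b, and the same 3 stood first for miR-486-3p. Within the 6 DLBCL libraries, r was 0.52, 0.79 and 0.34 for the 3 of miR-451, 0.85, 0.87 and 0.86 for those of miR-144, and 0.94, 0.94 and 0.92 for those of miR-486. All were computed on shared libraries and scaling and picked as the highest of all other miRNAs tested, and they are given without a test.

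**Figure D5:**
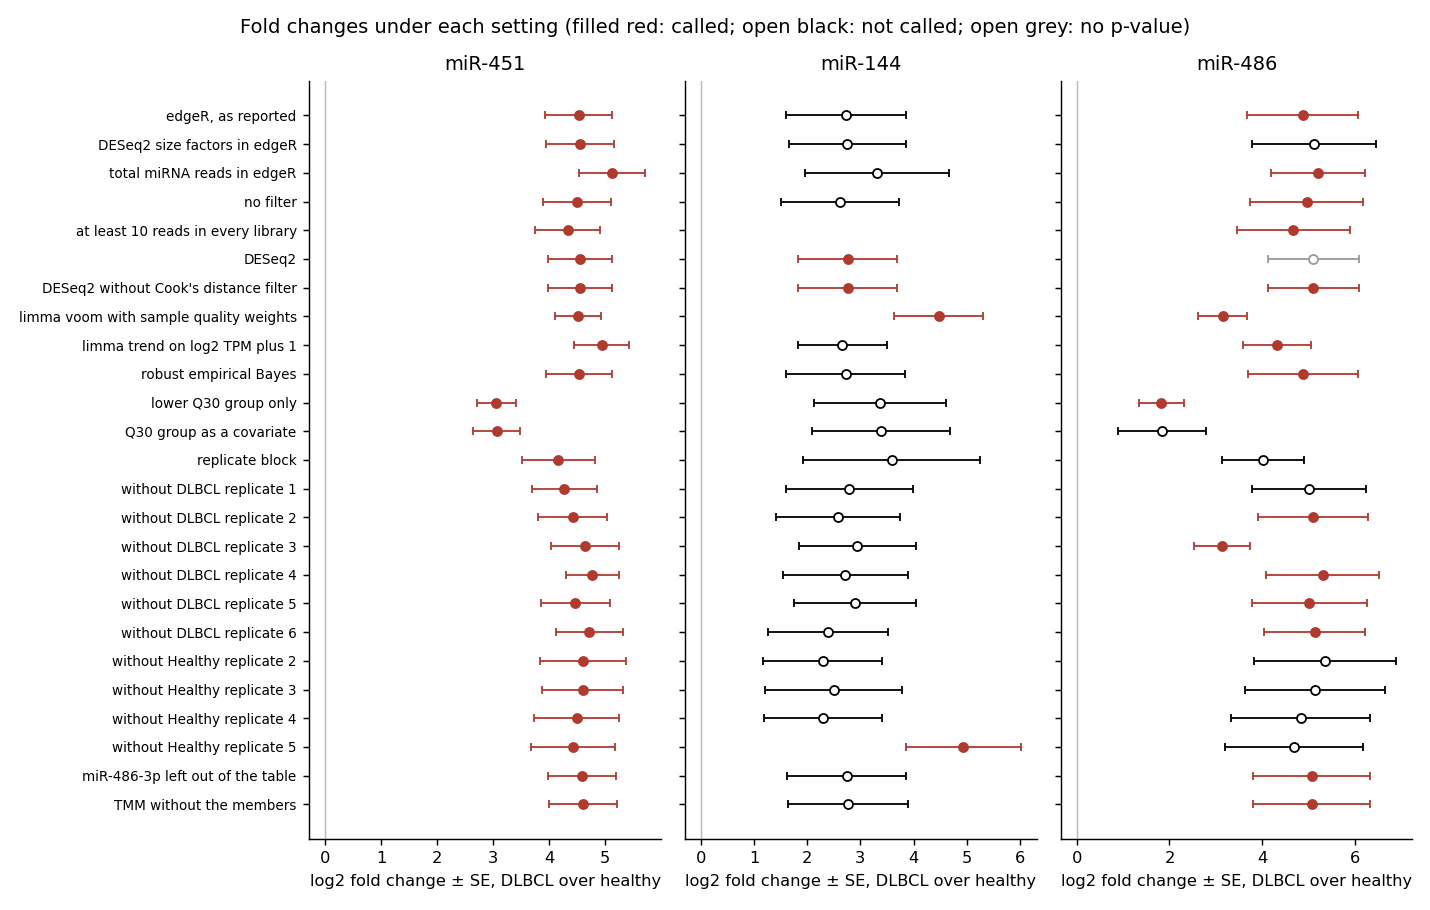
Log2 fold changes with standard errors of miR-451, miR-144 and miR-486 under each setting, from edgeR as reported at the top to the settings added after the data were seen at the bottom. Filled red points were called, open black points were not, and the open grey point had no p-value. All values are above 0, miR-451 is called throughout, and miR-486 is smallest in the lower Q30 group and with the Q30 group as a covariate.

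The differences were measured relative to the scaling. When scaled to the total of miRNA reads, as the deposited TPM values are, the median over all miRNAs tested moved from 0.13 to 0.82 on the log2 scale. On that scale miR-451 was at 5.12, miR-486 at 5.20 and miR-144 at 3.31, and miR-451 and miR-486 were called with adjusted p-values of 0.000126 and 0.00602 from edgeR. Levels of different miRNAs also depend on how well each is joined to the sequencing adapters, so that ratios between miRNAs are best compared between libraries and not read as numbers of molecules.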

How the data were processed

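Small RNA of 10 lymph nodes, 1 library per dog, was grouped by label into 6 DLBCL and 4 Healthy samples. After read cleaning, the authors aligned with Bowtie 0.12.9 (CanFam3.1 per the submitters' processing notes), discarded tags from repeats and from other kinds of small RNA, and assigned the rest to miRBase entries with a modified miRDeep2. The authors deposited counts, not normalized, and TPM values, which sum to 1000000 over the listed miRNAs of a library and were used only in 1 alternative (limma on log2 TPM). From the counts, edgeR 4.0.16 in R 4.3.3 was run on the whole table (TMM, default filter on low counts, quasi-likelihood test, Benjamini-Hochberg adjustment over 247 miRNAs), and log2 CPM used a prior count of 2. The submitters' processing notes name DESeq2 1.12.0, and DESeq2 1.42.0 and limma 3.58.1 were alternatives here. For ratios 0.5 reads were added to each count. Permutation tests ran in Python 3.11.15 with scipy 1.17.1 and numpy 2.4.6. The edgeR test was checked on simulated counts, and the permutation test of group means on simulated normal values. No libraries of a group agreed within sampling noise (smallest chi-squared per degree of freedom 1865).

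The 4 miRNAs and the lists were chosen with earlier results of these data known. Named by rule were the 4, miR-23a, the 3 most similar miRNAs of each, and of each list those called and the 2 with the highest mean CPM. Chosen after their values were seen were let-7e, miR-15a, miR-16, miR-22, miR-93, miR-96, miR-106b, miR-107, miR-126, miR-133c, miR-145, miR-181a, miR-182, miR-183, miR-206, miR-208a, miR-214 and miR-342, and so were the alternatives without miR-486-3p and with TMM factors computed without the 4. The Q30 groups follow the study's supplement. No sequences or coordinates are given, since no table of CanFam3.1 was used here, and UU_Cfam_GSD_1.0 served only to name neighbouring genes.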

Additional observations from a re-analysis of the deposited data

Results flagged for a closer look

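Each miRNA was read in CPM and again in log2 CPM, and each ratio in log2, within each group of 4 or 6 libraries. Of these 24 readings, 3 held a library whose gap to its nearest neighbour took up more of the range than Dixon's 95% critical value. All 3 were in CPM. For normally distributed values chance flags about 1 reading in 20, or 1.2 here. The readings are not independent, since the same libraries enter in CPM and in log2 CPM. miR-486 in DLBCL3, at 17490 CPM, had a gap of 0.909 of the range (critical value 0.625), and so had miR-486-3p in the same library, at 17133 CPM, with 0.910. miR-144 in Healthy5, at 5.92 CPM, had a gap of 0.879 of the range (critical value 0.829). On the log2 CPM scale the gaps were 0.564, 0.565 and 0.551, none of them beyond these limits. Without DLBCL3 the log2 fold changes of miR-486 and miR-486-3p were 3.13 and 3.12, and without Healthy5 that of miR-144 was 4.94.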

How the results depend on the processing

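miR-451 was called in all settings. miR-486 was not called with DESeq2's size factors in edgeR (log2 fold change 5.11, adjusted p = 0.0511), with the Q30 group as a covariate (1.84) and with the replicate block (4.02, adjusted p = 0.0514), and miR-486-3p likewise (5.10, 1.81 and 4.003). miR-144 was called with DESeq2 (2.76, with or without Cook's filtering) and limma voom with sample quality weights (4.47). DESeq2 gave no p-value to miR-486 or miR-486-3p unless its Cook's distance filter was off, and miR-144 fell under the filter of 10 reads in every library. The cause of these differences was not tested. Without single libraries, the log2 fold changes ranged from 4.27 to 4.77 for miR-451, 2.29 to 4.94 for miR-144, 3.13 to 5.35 for miR-486 and 3.12 to 5.36 for miR-486-3p. The number of miRNAs called, 14, became 8 with DESeq2's size factors, 23 with total reads, 45 with DESeq2 (49 once Cook's filtering was off), 46 with limma voom, 46 in the lower Q30 group, 7 with the Q30 covariate and 1 with the replicate block, under which miR-363 and miR-150 were not called. It ranged from 1 to 23 without single libraries, with 3 without DLBCL1, 22 without DLBCL3, 23 without DLBCL4, 2 without Healthy2, 5 without Healthy3, 1 without Healthy4 and 6 without Healthy5. The ratio of miR-451 to miR-23a differed by 3.87 in the lower Q30 group and by 5.24 to 6.16 without single libraries, and that of miR-486 to miR-451 by -1.33 to -0.27. The ratio of miR-144 to miR-451 turned from -0.25 to 2.001 in the lower Q30 group and ranged from -0.92 to 0.95 without single libraries, and that of miR-486-3p to miR-486 ranged from -0.0129 to 0.0031. The correlation of miR-451 turned sign with total reads, to 0.23 with miR-144, -0.18 with miR-486 and -0.17 with miR-486-3p, and without the 2 farthest libraries, to 0.82, -0.89 and -0.88. With all libraries, neither of these ratios and none of these correlations of miR-451 passed the threshold. The correlation of miR-144 with miR-486 over DLBCL was -0.76 with total reads (-0.97 to -0.84 without single libraries), that with miR-486-3p was -0.76 (-0.97 to -0.84), and that of miR-486 with miR-486-3p ranged from 0.9998 to 0.99998 without single libraries. The deviations of libraries with the same number in both groups had r of 0.26, -0.01, -0.30 and -0.33. These libraries come from different dogs, and whether they share more than a number was not tested.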
